A study of Mus musculus with 12 samples.

Results

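Of the 24 genes for glycine and GABA-A receptor subunits in the table, 7 are described here: Glrb, Glra1, Glra3, Gabra2, Gabra5, Gabrb2 and Gabrg1, out of 54532 genes in all. They were picked by name with their DAAO against control values from these same libraries already known, so those values are a description, and where a fit over all genes called one of the 7 this is reported without being read as support. RNA was measured in dorsal root ganglia, the clusters of sensory neuron cell bodies beside the spinal cord, in 6 DAAO libraries and 6 control libraries. The genotype label was DAAO-TGCdh5 for DAAO and CDH5-Cre for control mice. The sample titles of both groups carry Cdh5_Cre, and whether DAAO mice also had a separate Cre allele is not stated. Both groups were of the strain C57BL/6 and both received D-Alanine. D-amino acid oxidase (DAAO) makes hydrogen peroxide from D-alanine, and the Cdh5 promoter drives expression in endothelial cells. Age and sex are not in the labels, and nothing there says that libraries came from separate animals, so p-values measure the spread between these samples, which may be technical.

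Glycine and GABA-A receptors are pentameric channels that open to chloride when glycine or GABA binds. Sensory neurons of the ganglion keep their chloride high, so GABA depolarises them, and receptors on their central endings take part in presynaptic inhibition in the spinal cord. In glycine receptors the beta subunit binds the scaffold protein gephyrin and assembles with an alpha subunit, while most GABA-A receptors combine alpha, beta and gamma subunits.

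The promoters of the pair of subunits called lower are shown because they differ in base composition. Each is the 250 bases before the gene's start, on the gene's own strand, from RefSeq on GRCm38.p6, with CG dinucleotides in capitals. The Glrb window is chr3:80913661-80913910 on the minus strand, and the Gabrg1 window is chr5:70842618-70842867 on the minus strand.
Glrb: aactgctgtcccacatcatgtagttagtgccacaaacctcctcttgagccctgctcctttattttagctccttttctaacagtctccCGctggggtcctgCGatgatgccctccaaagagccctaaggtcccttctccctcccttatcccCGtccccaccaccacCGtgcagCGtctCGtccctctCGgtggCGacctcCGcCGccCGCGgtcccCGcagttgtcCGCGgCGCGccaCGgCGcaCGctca
Gabrg1: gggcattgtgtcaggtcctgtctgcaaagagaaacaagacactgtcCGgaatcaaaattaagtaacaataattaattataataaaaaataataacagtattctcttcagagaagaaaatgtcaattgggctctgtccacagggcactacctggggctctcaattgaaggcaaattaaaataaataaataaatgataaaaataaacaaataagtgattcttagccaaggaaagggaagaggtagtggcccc
The Glrb window had a GC content of 62.4% and 20 CG dinucleotides, and the Gabrg1 window 35.6% and 1, against medians of 52.4% and 6 over all 32851 windows. Windows were matched for 6 of the 7 genes, Glra1 being the exception. Read on both strands, TGTGGT (a RUNX core, in 14.0% of all windows), AAGGTCA (a site of estrogen-related receptors, 4.08%) and TGANTCA (AP-1, 6.75%) were found in 0 of the matched genes. TATAAA, in 12.4% of all windows, was found for Gabrb2 alone of the matched genes. These are matches of letters in these windows only.

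The libraries held 13227518 to 23884927 counts. In 5 libraries (DAAO 1, 2 and 6, control 1 and 2) Xist was above 10 CPM, as was the sum of 4 Y-linked genes. Hence n counts libraries, not animals. The share of mitochondrial counts was 7.44% in control 2 and 7.65% in control 6, against 3.32% to 5.13% elsewhere. Markers of sensory neurons were high: the 12 pan-neuronal and sensory neuron markers summed to 7886 to 12986 CPM in DAAO libraries and 9926 to 15385 CPM in control libraries. Values are CPM, read counts scaled to a common library size with TMM, and a gene is called at an adjusted p under 0.05 (edgeR's quasi-likelihood test, Benjamini-Hochberg over 17002 genes).

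Glrb, the beta subunit of glycine receptors (ENSMUSG00000028020, chr3:80843599-80913660), had a lowest, median and highest level of 104, 119 and 142 CPM in DAAO libraries, against 183, 207 and 231 CPM in control libraries. Every DAAO library lay below every control library. DAAO 6 was the lowest and DAAO 5 the highest of its group, and control 3 and control 6 bounded the other. The mean was 123 ± 15.3 CPM in DAAO and 208 ± 18.3 CPM in control libraries (SD, n = 6 each), a log2 fold change of -0.76 ± 0.11 (SE). In bulk RNA, fewer cells of a type and less RNA per cell cannot be told apart.

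**Figure D1:**
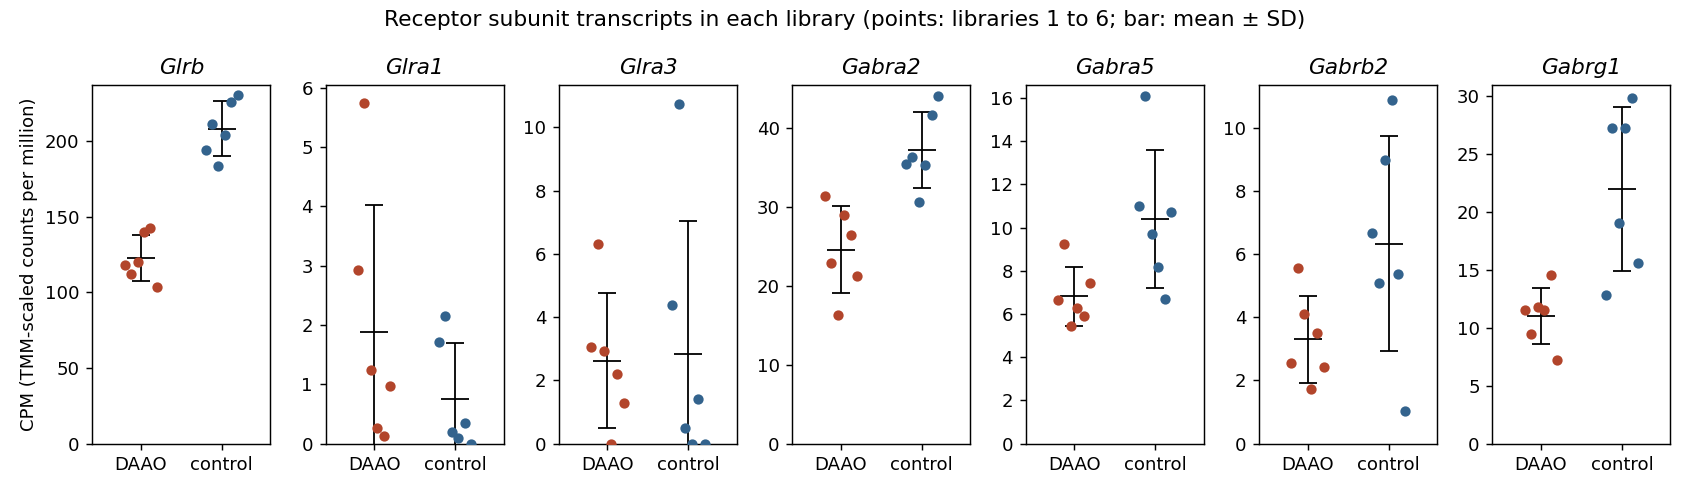
Level of each of the 7 subunits in every library (CPM, 1 panel a gene), DAAO left of control, with the mean and SD of 6 libraries, bars being cut at 0. Glrb alone has groups that do not overlap, 104 to 142 CPM in DAAO and 183 to 231 CPM in control libraries.

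Glra1 and Glra3 encode ligand-binding alpha subunits of glycine receptors, Glra1 being the main adult form in spinal cord and brainstem. Glra1 (ENSMUSG00000000263, chr11:55514238-55608198) had 0.126, 1.10 and 5.75 CPM (lowest, median, highest) in DAAO and 0, 0.277 and 2.16 CPM in control libraries. These are 3 to 112 counts in DAAO and 0 to 40 in control libraries, and the groups overlapped. Its log2 fold change was 1.30 ± 0.97, the only positive value of the 7. Glra3 (ENSMUSG00000038257, chr8:55940460-56130070) had 0, 2.55 and 6.31 CPM in DAAO and 0, 0.957 and 10.7 CPM in control libraries, with a log2 fold change of -0.12 ± 1.19. It had 0 counts in DAAO 4, control 4 and control 6, which allows up to 0.163, 0.140 and 0.240 CPM (3 counts, covering counting error only).

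Glra1 and Glra3 were set beside markers of central nervous tissue. Mobp, a gene of central myelin chosen after its values were seen, had 555, 572, 498, 75.0, 104 and 222 CPM in DAAO 1 to 6, and 522, 2097, 288, 11.4, 101 and 66.6 CPM in control 1 to 6. Glra3 was highest in control 2 and DAAO 2, which were also the highest in Mobp, and the 3 libraries without Glra3 counts were the 3 lowest in Mobp. Glra1 was highest in DAAO 2 and DAAO 1, at 5.75 and 2.92 CPM, and had 2.16 CPM in control 2, the library with the most Mobp. Slc6a5, the neuronal glycine transporter, was highest in control 2, at 28.2 CPM, and at 0 in control 4. The 8 oligodendrocyte markers summed to 101 to 689 CPM in DAAO and 14.5 to 2395 CPM in control libraries, and 0 of the 8 were called. With the level of these 8 markers as a term in the fit, log2 fold changes were 0.85 ± 0.75 for Glra1 and 0.22 ± 0.77 for Glra3. Without the term they were 1.30 and -0.12, and neither gene was called in either fit. The part of such tissue in the values of Glra1 and Glra3 was not tested. Glrb had 118, 112, 120, 140, 142 and 104 CPM in DAAO 1 to 6. In control 1 to 6 it had 194, 211, 183, 204, 226 and 231 CPM. The part of such tissue in the values of Glrb was not tested either.

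**Figure D2:**
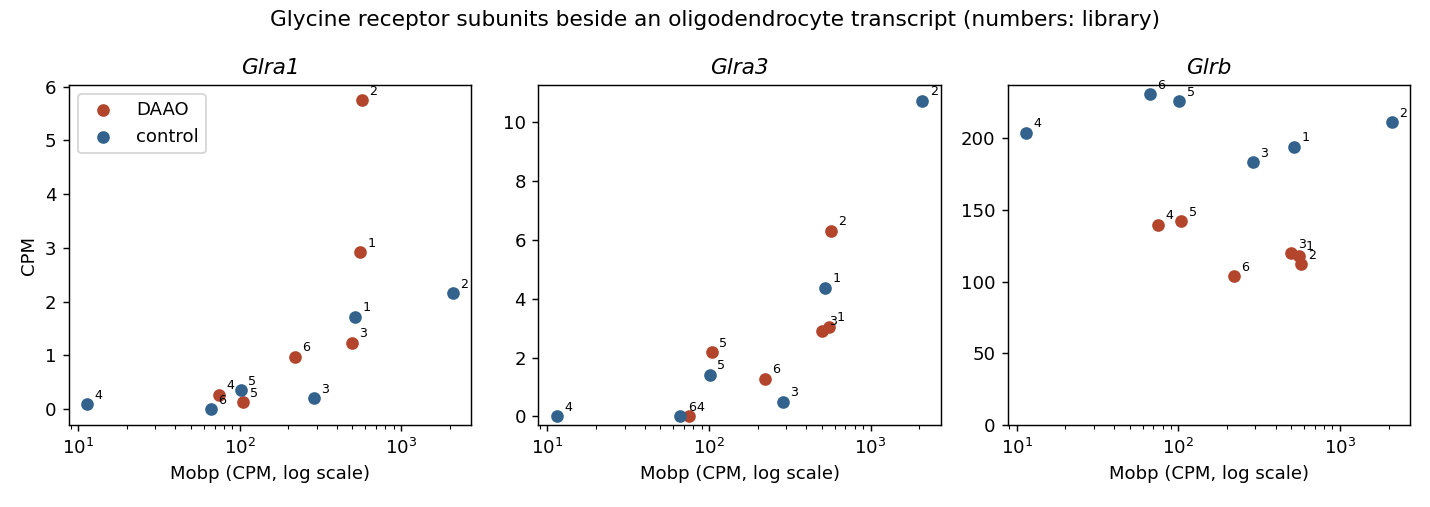
Levels of Glra1, Glra3 and Glrb (CPM, 1 panel a gene) against that of Mobp (CPM, log axis), 1 numbered point a library, DAAO in red and control in blue. The libraries with most Mobp, control 2 (2097 CPM) and DAAO 2 (572 CPM), have the most Glra3, at 10.7 and 6.31 CPM.

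Gabra2 and Gabra5 encode alpha subunits of GABA-A receptors, and Gabra5 often sits outside synapses. Gabra2 (ENSMUSG00000000560, chr5:70957597-71095849) had 16.3, 24.7 and 31.4 CPM (lowest, median, highest) in DAAO and 30.7, 35.8 and 44.0 CPM in control libraries. DAAO 1 lay just above control 3, and the other 5 DAAO libraries lay below every control library. The log2 fold change was -0.60 ± 0.16. Gabra5 (ENSMUSG00000055078, chr7:57407672-57510059) had 5.44, 6.46 and 9.24 CPM in DAAO and 6.72, 10.2 and 16.1 CPM in control libraries, with a log2 fold change of -0.61 ± 0.23. All 6 DAAO libraries were below the control median of Gabra5, and the groups overlapped.

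Gabrb2, a beta subunit (ENSMUSG00000007653, chr11:42419757-42629028), had 1.74, 3.02 and 5.54 CPM in DAAO and 1.04, 6.01 and 10.9 CPM in control libraries. Control 6, with 13 counts, was the lowest of all 12 libraries, while all 6 DAAO libraries were below the control median. The log2 fold change was -0.94 ± 0.42. Gabrg1, a gamma subunit (ENSMUSG00000001260, chr5:70751047-70842617), had 7.24, 11.5 and 14.6 CPM in DAAO and 12.8, 23.1 and 29.8 CPM in control libraries. DAAO 5 lay above control 1, and the other 5 DAAO libraries lay below every control library. Its log2 fold change was -0.99 ± 0.22.

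Of the 7, Glrb and Gabrg1 were called lower and 0 were called higher. Over all 17002 genes 0.753% were called, 0.247% called lower, and 0.529% had every DAAO library below every control library. DESeq2 called 3 of the 7 lower (Glrb, Gabrg1 and Gabra2), with 0.853% of all genes called lower, and limma-voom called Glrb, with 0.194% called lower. The choice of the genes used this contrast, so nothing is read from these counts. The call of Gabrg1 was lost without DAAO 1, 2, 3, 4 or 6, or without control 3, 4 or 5, where its log2 fold change was -1.05 to -0.90.

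The other subunits are the rest of both receptor families. Of these 17, 10 had enough counts to be tested, and in all 10 the log2 fold change was below 0. Their median was -0.23, against 0.00 over all genes, of which 49.6% were negative. None of the 10 was called with edgeR, DESeq2 or limma-voom, and 1 had an unadjusted p under 0.05, as had 10.3% of all genes tested. Glra2, an alpha subunit of immature glycine receptors, had the lowest value, -1.40 ± 0.88, at 0.648 CPM in DAAO and 1.71 CPM in control libraries (adjusted p = 0.639). The tested subunits Gabra3, Gabra4, Gabrb1, Gabrg3, Gabre and Gabrq had log2 fold changes of -0.50 to -0.06. The count of negative values among all 17 tested subunits was 16 under each scaling, 12 with limma-voom and, without control 2, 11 of 18 tested.

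**Figure D3:**
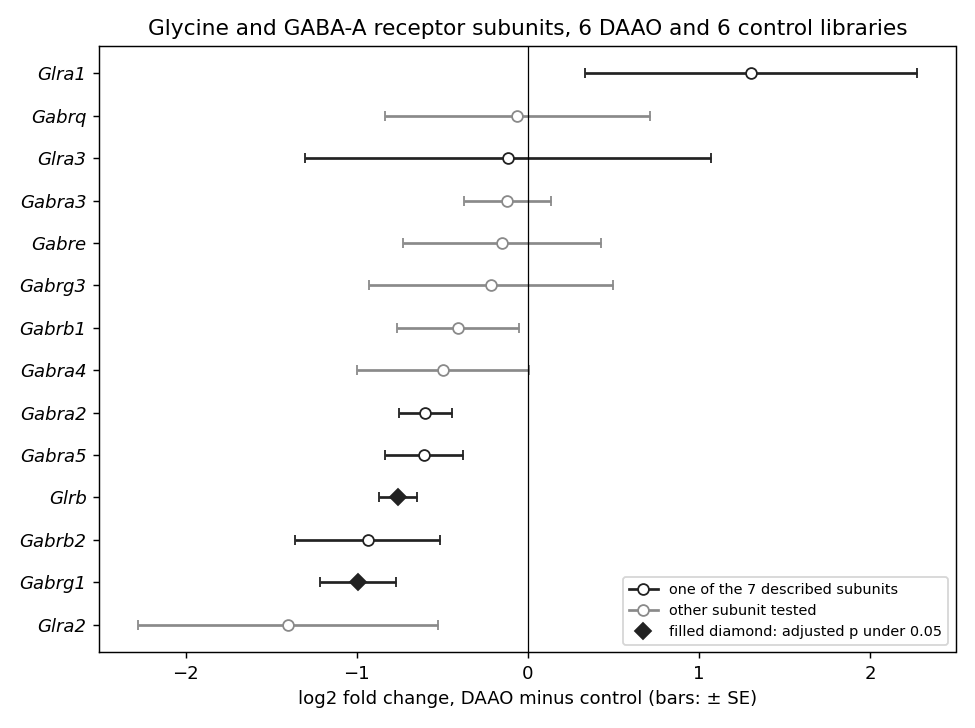
Log2 fold change, DAAO minus control, with its SE for 14 of the subunits tested, filled where called. Of the 14, 13 lie below 0, and Glrb (-0.76) and Gabrg1 (-0.99) are called.

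Some subunit genes are neighbours. On chromosome 5, Gabrg1, Gabra2, Gabra4 and Gabrb1 lie within 1.40 Mb, and 4 of 4 had negative log2 fold changes. Of all 17 tested subunits 16 were negative, so the sign is not particular to this stretch. Gabra5 shares 148 exon bases with Gm9962 on the other strand and Glra1 shares 141 with Gm12236, whose own counts were at most 15 and 2. Without a stated strand setting, reads of such overlaps cannot be assigned.

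Levels between genes were compared per kilobase of the deposited gene length. Glrb was first of the 17 tested, at 26.3 CPM per kb in DAAO and 44.7 CPM per kb in control libraries, and its libraries did not overlap those of any other tested subunit in either group. Gabra3, Gabra2, Gabra5 and Gabrg1 had 5.57, 3.21, 2.29 and 1.40 CPM per kb in DAAO and 6.05, 4.87, 3.50 and 2.79 CPM per kb in control libraries. Neighbours among these 4 overlapped in their libraries, other than Gabra3 and Gabra2 in DAAO libraries. Glra1 had 0.778 CPM per kb in DAAO and 0.312 CPM per kb in control libraries, and Gabrb2 had 0.520 CPM per kb in DAAO and 0.995 CPM per kb in control libraries.

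**Figure D4:**
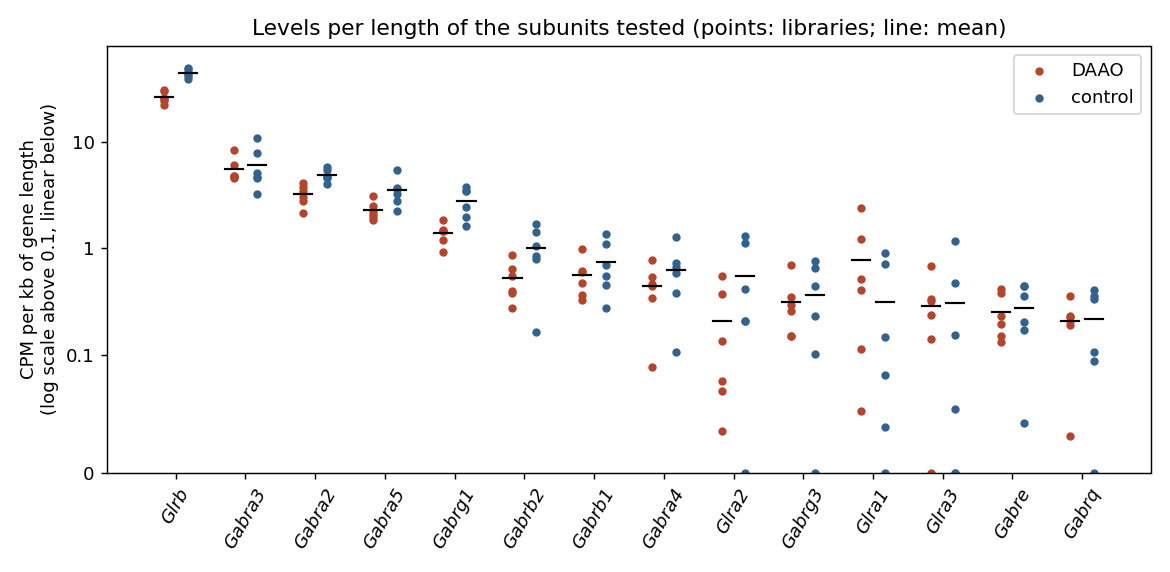
Level per kilobase (CPM per kb, log axis above 0.1 and linear below) of 14 of the tested subunits in DAAO (red) and control (blue) libraries, with a point for each library and a line at the mean. Glrb leads in both, at 26.3 in DAAO and 44.7 CPM per kb in control libraries.

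Glrb made up 95.0 ± 4.69% of the summed glycine receptor level per kb in DAAO and 97.5 ± 2.82% in control libraries. That sum was 27.7 ± 2.83 CPM per kb in DAAO and 45.9 ± 3.81 in control libraries, without overlap. Being mostly Glrb, it largely restates the values of that gene. The alpha subunits of GABA-A receptors summed to 21.3 ± 1.83 CPM per kb in DAAO and 27.2 ± 1.94 in control libraries, again without overlap. This is a description, since the alpha sum holds the picked genes Gabra2 and Gabra5. Over all single genes 0.529% had every DAAO library below every control library, a share not worked out for such sums. Beta and gamma sums overlapped between groups, at 11.3 and 14.0 CPM per kb in DAAO and 13.7 and 17.5 in control libraries. Within the gamma subunits, Gabrg1 held 9.97 ± 1.72% in DAAO and 15.9 ± 4.76% in control libraries. Gabra2 held 15.1 ± 3.44% of the alpha level in DAAO and 18.0 ± 2.95% in control libraries, and Gabrb2 held 4.51 ± 1.48% of the beta level in DAAO and 6.93 ± 3.02% in control libraries.

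Genes that assemble, feed and drive these receptors were counted in 4 further lists, chosen with earlier results of these data known. Of 18 synapse assembly and trafficking genes, 10 had negative and 8 positive log2 fold changes (median -0.07), and edgeR called 0, with 0 at an unadjusted p under 0.05 and 0 by DESeq2 or limma-voom. Gphn, which encodes gephyrin, averaged 38.5 ± 3.26 CPM in DAAO and 45.5 ± 5.55 CPM in control libraries (-0.24 ± 0.12, adjusted p = 0.493). Plcl1, Slitrk3 and Gabarapl2 had log2 fold changes of -0.34, -0.31 and -0.23 (adjusted p = 0.489, 0.643 and 0.572).

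Of 16 genes of transmitter synthesis, storage and uptake, 10 were negative and 6 positive (median -0.08), and edgeR called 0. Against 10.3% of all genes, 1 of the 16 was at an unadjusted p under 0.05. That gene, Gcsh of the glycine cleavage system, averaged 61.4 ± 4.03 CPM in DAAO and 76.8 ± 5.01 CPM in control libraries, without overlap (-0.32 ± 0.09, edgeR adjusted p = 0.159). DESeq2 called Gcsh, with 0.853% of all genes called lower, and limma-voom called 0 of the list. Over all genes 0.529% had every DAAO library below every control library. Slc6a11, a GABA transporter, had -0.68 ± 0.81 and Shmt2, which makes glycine from serine, 0.12 ± 0.15 (edgeR adjusted p = 0.874 and 0.879). The medians of Slc6a11 were 19.7 CPM in DAAO and 20.1 CPM in control libraries, with 149 CPM in control 2. Without control 2 the log2 fold change of Slc6a11 was 0.52.

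Of 13 chloride transport genes, 9 were negative and 4 positive (median -0.04), and edgeR, DESeq2 and limma-voom called 0, with 3 at an unadjusted p under 0.05, all lower (10.3% of all genes were at such a p). Stk39, a kinase that activates the chloride importer Slc12a2, averaged 151 ± 19.9 CPM in DAAO and 203 ± 35.3 CPM in control libraries (-0.43 ± 0.13, adjusted p = 0.196). Slc12a2 itself averaged 187 ± 15.2 CPM in DAAO and 221 ± 26.9 CPM in control libraries (-0.24 ± 0.11, adjusted p = 0.464). Ano1, a calcium-activated chloride channel, had -0.87 ± 0.33 and Slc12a4, a potassium-chloride cotransporter, 0.32 ± 0.16 (adjusted p = 0.337 and 0.520). Of 6 genes of metabotropic GABA-B receptors, 2 were negative and 4 positive (median 0.11), with 0 called by edgeR, DESeq2 or limma-voom and 0 at an unadjusted p under 0.05. Kctd8, Kctd12b, Kctd12 and Kctd16, auxiliary subunits of these receptors, had -0.18, 0.35, 0.20 and 0.24 (adjusted p = 0.746, 0.793, 0.916 and 0.923).

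**Figure D5:**
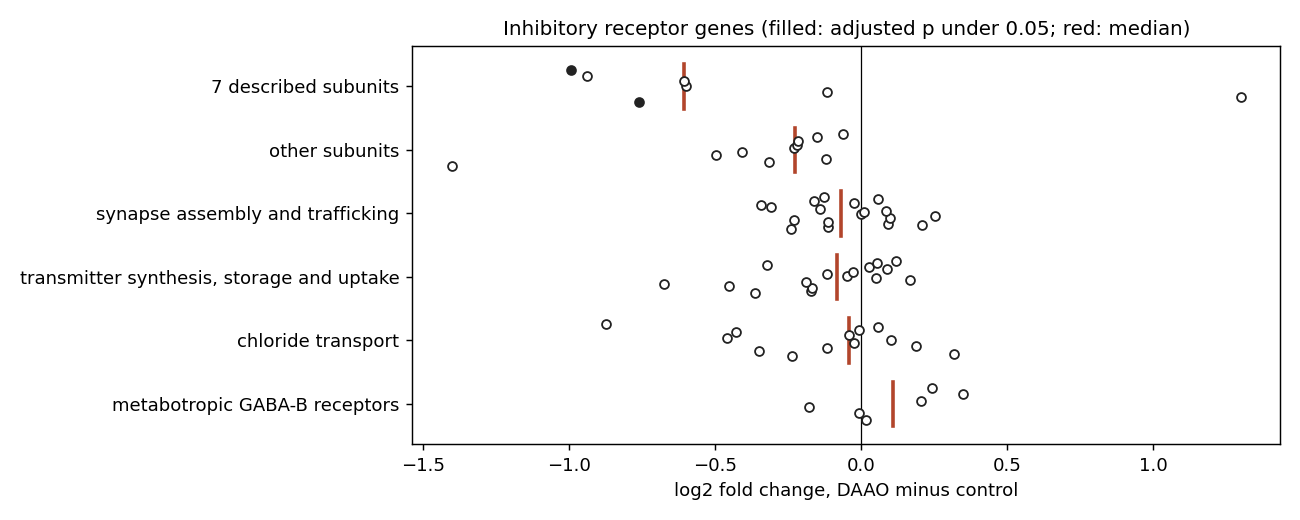
Log2 fold change, DAAO minus control, of each tested gene of the 7 subunits, the other subunits and 4 lists, filled where called, with the median in red. The median of the other subunits is -0.23, and those of the 4 lists lie between -0.08 and 0.11.

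Marker lists of several cell types were counted beside the subunits. These lists were chosen with earlier results of these data known, so their counts are a description. Of all genes tested, 49.6% were negative, 0.753% were called by edgeR and 0.247% were called lower by edgeR. Over the 17002 genes, DESeq2 called 362 and limma-voom 98 in either direction. Of 9 proprioceptor and large-diameter neuron markers, 9 had negative log2 fold changes and 3 fell, with summed levels of 1427 to 2064 CPM in DAAO and 1772 to 3676 CPM in control libraries. Those were Runx3, a transcription factor of proprioceptors (-2.10 ± 0.33, edgeR adjusted p = 0.00455), Etv1 (-0.68 ± 0.13, 0.0185) and Whrn (-0.82 ± 0.18, 0.0418). Of 8 markers of A-fibre low-threshold mechanoreceptors, 7 were negative and 1 positive (median -0.21). Calb1 and Shox2 fell (-0.83 ± 0.16 and -1.38 ± 0.31, edgeR adjusted p = 0.0202 and 0.0489). Of the 12 pan-neuronal and sensory neuron markers, 8 were negative and 4 positive (median -0.05). Among those 12 Snap25 fell (-0.61 ± 0.14, edgeR adjusted p = 0.0498), the only 1 at an unadjusted p under 0.05. Peptidergic and non-peptidergic nociceptor lists had medians of 0.11 and -0.02 with 0 called by edgeR, DESeq2 or limma-voom and 0 at an unadjusted p under 0.05. All 10 myelinating Schwann cell markers were negative with 0 called by edgeR and limma-voom, 1 by DESeq2 and 6 at an unadjusted p under 0.05 (10.3% over all genes), and all 6 macrophage markers were positive, of which Lyz2 rose (2.46 ± 0.49, adjusted p = 0.0450). All 8 skeletal muscle markers were negative (median -2.34) and all 6 fibroblast markers positive (median 0.47), with 0 called by edgeR, DESeq2 or limma-voom and 0 at an unadjusted p under 0.05 in either list. The muscle markers varied widely between libraries, summing to 6.15 to 427 CPM in DAAO and 12.9 to 2554 CPM in control libraries. Of these markers Acta1 had 729 CPM in control 4 and 295 CPM in control 5, but 4.32 CPM in control 6. Of 5 satellite glia markers 4 were negative (median -0.43), with 0 called by edgeR and limma-voom and 2 by DESeq2. At an unadjusted p under 0.05 were 2 with opposite signs, Fabp7 (-0.73 ± 0.18) and Apoe (0.77 ± 0.20). DESeq2 called 4 of the proprioceptor, 2 of the A-fibre, 1 of the pan-neuronal and 2 of the macrophage markers. With limma-voom these were 3, 2, 1 and 1. The part of the makeup of cell types in the subunit values was not tested.

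Within groups, Glra1 and Glra3 varied together over the 12 libraries (Pearson r = 0.81 of deviations from the group means), the highest of the 21 pairs among the 7. The next were Glra1 with Gabra5 (0.57), Glrb with Gabra2 (0.57) and Glrb with Gabrg1 (0.53), and the lowest were Glrb with Glra1 (-0.54), Gabra2 with Gabrb2 (-0.54) and Glrb with Gabrb2 (-0.47). These are descriptions, since the genes share each library and its depth, and Glra1 and Glra3 had 0 counts in some libraries. The genes most like each subunit by this measure were Ublcp1, Hmgcs1 and Zfand5 for Glrb (0.93, 0.91 and 0.90) and Ptprd, Ctbp2 and Lrig1 for Glra1 (0.96, 0.96 and 0.95). They were Cd83, Tunar and Cxcl14 for Glra3 (0.97, 0.95 and 0.95) and Mab21l2, Zfp113 and Gm37621 for Gabra2 (0.93, 0.93 and 0.92). For Gabra5 they were 9330162G02Rik, Commd10 and Ccdc9 (0.91, 0.91 and 0.90), and for Gabrb2 Ptar1, Gtf3c4 and Dync1li2 (0.95, 0.94 and 0.94). For Gabrg1 they were B230354K17Rik, Prdx3 and Gm6565 (0.88, 0.84 and 0.83). A search over many genes in 12 libraries can yield a high r by itself, so these lists are descriptions too.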

How the data were processed

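Total RNA of dorsal root ganglia was sequenced as paired reads, per the labels' protocols. The deposited table holds whole-number read counts per gene, not normalised, with gene names, positions and gene lengths in bases. Per the submitters' processing notes, the tools were HISAT2 2.0.5, FastQC and DESeq2 1.20.0, with GRCm38 and mm10 as builds. The sources used here do not name the counting program, its strand setting or the annotation.

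Groups came from the labels. Genes were kept with filterByExpr (minimum count 10, minimum total 15), which left 17002, scaled with TMM and tested with edgeR 4.0.16 in R 4.3.3 (robust quasi-likelihood test, two-sided, Benjamini-Hochberg). The test was tested on simulated data. DESeq2 1.42.0, limma 3.58.1 (voom), other scalings, filters, terms and left-out libraries were alternatives. SE is the absolute log2 fold change over the square root of F.

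The 7 subunits and the lists were chosen with earlier results of these data known. Named genes are the 7, the other subunits tested, up to 4 members of each list with the smallest p, and the 3 genes most like each of the 7, by Pearson r of log2 CPM (prior count 2) after subtracting group means, among genes averaging a log2 CPM of 1 or more. Some genes that this rule names are not reported here. Promoter windows came from RefSeq. Whether equal replicate numbers pair the libraries was not settled, and the main test did not pair them.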

Additional observations from a re-analysis of the deposited data

Results flagged for a closer look

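Gabrg3, a gamma subunit of GABA-A receptors, had 8.26 CPM in DAAO 2, against 1.77 to 4.13 CPM in the other DAAO libraries. It was picked out because the gap to its nearest neighbour was 0.637 of the group's range (above the critical value of Dixon's test for 6 libraries). Of 34 pairs of a subunit and a group examined, this was the only 1, and chance picks out about 1 in 20.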

How the results depend on the processing

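The 7 subunits had 2 calls, lower, and 1 (Glrb) with library totals alone, with limma-voom and with the oligodendrocyte level as a term; leaving out 1 library gave 1 to 2. Calls over all genes numbered 128, against 362 with DESeq2, 648 without controls 2 and 6, and 61 to 322 with 1 library left out; they were 78, 65, 73 and 61 without DAAO 1, 2, 3 or 6, and 80, 322 and 77 without control 1, 2 or 5. DESeq2 called 1 gene of transmitter synthesis, storage and uptake (Gcsh). Without controls 2 and 6, 2 other subunits, 1 synapse assembly gene (Slitrk3), 1 chloride transport gene (Stk39) and Gabrb2 were also called. Some log2 fold changes turned sign, many of them near 0 or at low counts. That of Slc6a11, -0.68 with all libraries, was 0.52 without control 2. Glra3 was 1.13 with limma-voom, 0.89 with the replicate block, 0.22 with the oligodendrocyte term and 0.75 without controls 2 and 6. With limma-voom Gabrg3, Gabre and Gabrq were 0.39, 0.037 and 0.58, and with the replicate block 0.15, 0.013 and 0.16. Without controls 2 and 6, Gabra3, Gabrq, Slc6a11 and Kctd16 were 0.0044, 0.00083, 0.30 and -0.17. With 1 library left out, Glra3 was -0.59 to 1.06, Gabra3 -0.27 to 0.13, Gabrg3 -0.61 to 0.14, Gabre -0.39 to 0.041, Gabrq -0.33 to 0.21 and Slc6a11 -1.08 to 0.52. The cause was not tested. Same-numbered libraries had correlations of -0.08 to 0.22, and 2 of 6 DAAO libraries correlated best with the control of their own number. So few libraries cannot decide whether equal numbers mark pairs. The replicate block gave 187 calls over all genes, against 128 without it, with Glrb at -0.77. Depth limits Glra1, Glra3 and Gabrb2, which had as few as 0 to 13 counts in a library.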
